A study of Mus musculus with 2 samples.

Results

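The distal ends of the mouse autosomes were examined for 5-hydroxymethylcytosine (5hmC) in mouse embryonic fibroblasts (MEFs), which are primary connective tissue cells grown from mid-gestation embryos. The distal part of an autosome was taken as the 3 Mb before the largest peak end found on it in either of 2 lists of 5hmC peaks, and a peak belonged to it when its midpoint lay there. On chromosomes 1 to 19 together, 1728 of the 60157 peaks of the passage 0 list (2.87%) and 183 of the 6726 peaks of the passage 5 list (2.72%) were members, 1911 of 66883 peaks in all. The rule uses positions alone, so density, width, score and overlap between the lists were free to vary, apart from the peak that sets each end, which is a member by construction.

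Both groups were C57BL/6 cells from embryos of day 13.5, grown in high-glucose medium with fetal calf serum, and they differed in the time in culture, with harvest at passage 0 or passage 5. There was 1 library per passage. In each, sonicated DNA carrying 5hmC was captured through the glucosylated and biotin-tagged hydroxymethyl group and sequenced. A peak is a stretch in which the authors' caller found enrichment, and its score is the authors' own value, used here only within a list. How many embryos stood behind a library, their sex and the read depth were not given in the sources used here, and the lists hold no expression values against which the fibroblast label could be checked.

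The TET enzymes make 5hmC by oxidising 5-methylcytosine, and the mark is known to lie mainly in gene bodies and at enhancers. It is an intermediate of active demethylation and can also be diluted when DNA is copied, because maintenance methylation does not copy it. Mouse chromosomes have their centromere at one end, so the distal end of the assembly is the arm end that borders a telomere. DNA next to telomeres is normally heavily methylated in mouse cells, and TET enzymes are known to act on it in embryonic stem cells. The last peak of a list is not the end of the chromosome, and no mm9 chromosome lengths, genes or sequence were used, so distances are counted from the last peak and no bases are printed.

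Summed over the autosomes, distal DNA held somewhat more 5hmC peaks than the rest of the same chromosomes at passage 0. There were 30.3 peaks per Mb in the 57 Mb of distal DNA and 24.9 per Mb in the other 2339 Mb, a ratio of 1.22 with a 95% counting interval of 1.16 to 1.27. The passage 5 densities were 3.21 and 2.79 per Mb, and the ratio of 1.15 had an interval of 0.989 to 1.33 that included equality. Peaks covered 2.88% of distal bases and 2.35% of the rest at passage 0, and 0.184% and 0.161% at passage 5. These intervals count each peak as an independent event and hold for counting error alone. Replicate error cannot be given, as each passage had 1 library, and no p-value was computed.

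This sum joined autosomes that differed widely. At passage 0 the ratio of distal density to the density of the rest ran from 0.0111 on chromosome 17 to 3.37 on chromosome 14, with a median of 1.36. It was above 1 on 10 autosomes and below 1 on 9. The counting interval lay above 1 on all of those 10 and below 1 on 7, the exceptions being chromosomes 2 and 6. The number of passage 0 members on an autosome ran from 1 to 193. The 5 autosomes with the most members held 859 of them, which is 49.7% of the passage 0 members, and 81 of the passage 5 members, which is 44.3%.

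Chromosome 14 had the distal part that stood farthest above its own chromosome. It held 193 passage 0 peaks, or 64.3 per Mb against 19.1 per Mb in the rest (ratio 3.37, 2.90 to 3.91). At passage 5 it held 15 peaks, with a ratio of 2.46 (1.35 to 4.14). Among 38 consecutive windows of 3 Mb counted back from the end of chromosome 14, 1 window held more passage 0 peaks than the distal one. Chromosome 5 followed with 185 passage 0 peaks, 61.7 per Mb against 25.9 (ratio 2.38, 2.04 to 2.76), and 14 passage 5 peaks (ratio 1.74, 0.945 to 2.96). On chromosome 4 there were 166 passage 0 peaks, 55.3 per Mb against 25.2 (ratio 2.20, 1.87 to 2.57), and 15 passage 5 peaks (ratio 1.82, 1.01 to 3.03). Chromosome 8 had the most distal peaks at passage 5, 19 of them, beside 158 at passage 0, with ratios of 2.27 (1.35 to 3.60) and 1.89 (1.60 to 2.21). On chromosomes 5, 4 and 8, 3, 5 and 6 windows held more passage 0 peaks than the distal one. The distal window exceeded the median of the other windows of its chromosome on 12 of the 19 autosomes at each passage. Over the autosomes, a median of 70% of the other windows held fewer peaks at passage 0, and 54.1% at passage 5.

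At the other extreme, 3 autosomes were nearly empty at their distal end. Chromosome 17 held 1 member, the passage 0 peak at 94401194 to 94401931 that sets its end, and the next passage 0 peak lay 3202 kb before it. Its rest held 29.9 peaks per Mb at passage 0. Chromosome 3 held 2 members, both at passage 0, at 157730763 to 157731540 (score 113) and at 159580395 to 159580925 (score 96.5), against 22.4 peaks per Mb in its rest. Chromosome 18 held 3, at 88996021 to 88996602, 89004566 to 89005153 and 90718102 to 90718717, with scores of 87.4, 92.4 and 82.0. None of these 6 peaks overlapped a passage 5 peak, which 7.62% of all autosomal passage 0 peaks did. These 3 autosomes had no passage 5 member. Their last passage 5 peaks ended 3544 kb, 6510 kb and 5668 kb before the last peak end on chromosomes 17, 3 and 18. Chromosomes 12 and 13 were also sparse, with 17 and 27 passage 0 members and ratios of 0.263 (0.153 to 0.422) and 0.338 (0.222 to 0.492). Chromosome 13 nevertheless held 8 passage 5 members, 2.67 per Mb against 2.88 in its rest (ratio 0.928, 0.397 to 1.85).

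**Figure D1:**
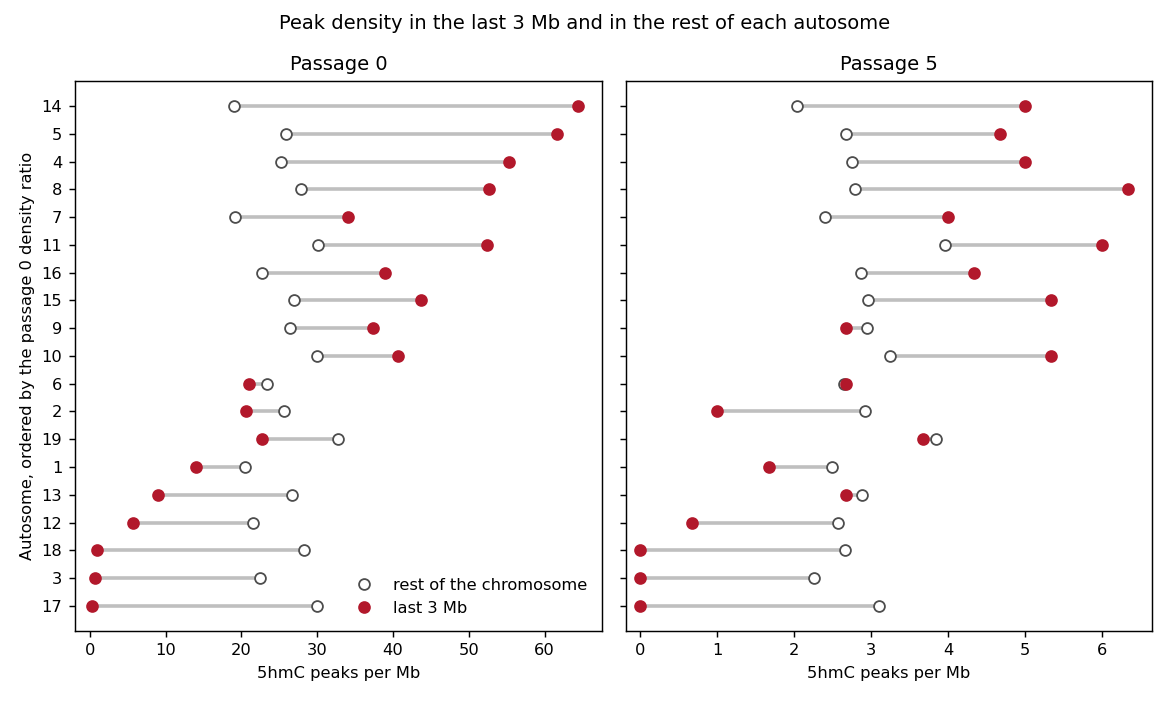
Density of 5hmC peaks (peaks per Mb, horizontal axis) in the last 3 Mb (filled red points) and in the rest (open points) of each of 19 autosomes, ordered by the passage 0 ratio, with 1 library per passage and separate scales for passage 0 (left) and passage 5 (right). Red points lie to the right of the open points on 10 autosomes at each passage, led at passage 0 by chromosome 14 with 64.3 against 19.1 peaks per Mb, and near 0 on chromosomes 3, 17 and 18.

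Ranked by their number of distal peaks, the autosomes kept much the same order at both passages. The distal ratio was above 1 at both passages on 9 autosomes and below 1 at both on 8. At passage 5 the counting interval lay above 1 on 4 autosomes and below 1 on 4, and it included 1 on the others. Chromosomes 3, 17 and 18, which had no passage 5 member, are counted as below. Chromosome 9 changed side, with 112 passage 0 peaks (ratio 1.42, 1.16 to 1.71) and 8 passage 5 peaks (ratio 0.905, 0.388 to 1.8). Chromosome 6 lay near 1 at both, with 63 and 8 peaks and ratios of 0.901 (0.691 to 1.16) and 1.01 (0.431 to 2.0). The distal numbers of the 2 passages were correlated across the 19 autosomes, with a Spearman rho of 0.90 and a Pearson r of 0.90. These are correlations of peak numbers, not of ratios. Of the 183 passage 5 members, 130 overlapped a passage 0 peak, so the 2 sets of numbers were not independent. The autosomes share both libraries and are not independent replicates.

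Whether the distal 3 Mb were dense or sparse depended on how far from the end the peaks were counted. The last 1 Mb held 289 passage 0 peaks on the 19 autosomes, 15.2 per Mb, which was 0.610 of the density outside the distal 3 Mb (0.541 to 0.684). The second Mb held 594, or 31.3 per Mb (1.25, 1.15 to 1.36). The third held 845, or 44.5 per Mb (1.78, 1.66 to 1.91). In the passage 5 list the same steps held 44, 59 and 80 peaks, with ratios of 0.831 (0.603 to 1.12), 1.11 (0.848 to 1.44) and 1.51 (1.20 to 1.88). The last 1 Mb was thus below the rest at passage 0, and at passage 5 its interval included equality. A passage 0 peak set the end on 18 autosomes and a passage 5 peak on 1. On chromosomes 3, 17 and 18 the end peak lay 1849, 3202 and 1713 kb from the next passage 0 peak. The count in the last 1 Mb thus depends in part on which peak sets the end. Peaks in the last 1 Mb exceeded the rest of their own chromosome on 4 autosomes at passage 0, against 8 in the second Mb and 14 in the third.

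High densities did not end at the 3 Mb border. Passage 0 density was 52.0 peaks per Mb between 5 and 6 Mb from the end and 64.1 between 8 and 9 Mb, 2.57 times the density outside the distal 3 Mb (2.42 to 2.72), and was 35.4 between 9 and 10 Mb. At passage 5 the density was 5.84 per Mb between 5 and 6 Mb (2.10, 1.72 to 2.53) and 5.05 between 8 and 9 Mb (1.81, 1.47 to 2.22). Farther in, density was again high, 49.2 per Mb at passage 0 between 14 and 15 Mb (1.97, 1.85 to 2.10), where passage 5 had its highest step, 6.05 per Mb (2.17, 1.79 to 2.61). On either side of the 3 Mb border the sums were close, 44.5 per Mb in the third and 40.5 per Mb in the fourth. The peak just inside it, on chromosome 11 at 118609878 to 118610494, had a width of 617 bp and a score of 105. The peak just outside, on chromosome 2 at 178651310 to 178652784, had a width of 1475 bp and a score of 341. Both were passage 0 peaks without a passage 5 partner.

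**Figure D2:**
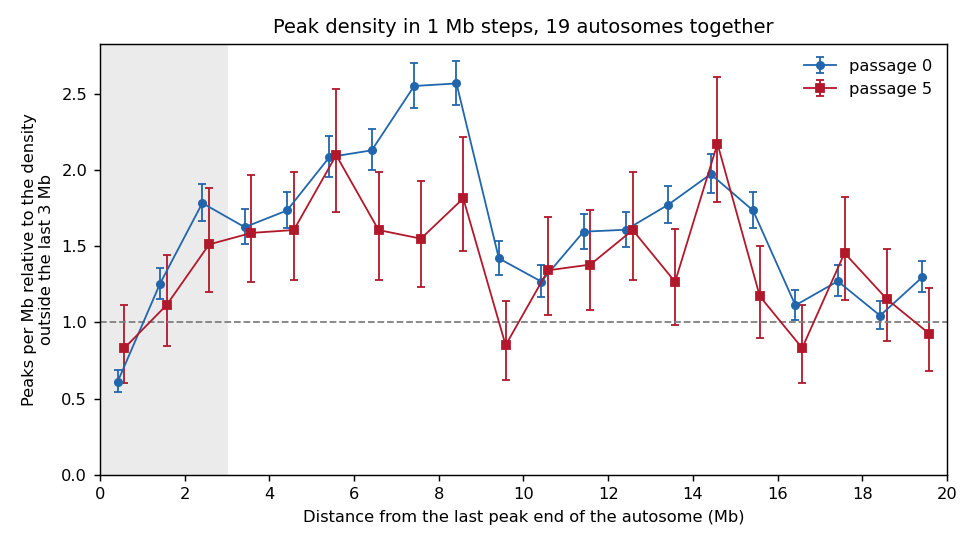
Peaks per Mb in 1 Mb steps counted back from the last peak end, summed over 19 autosomes and divided by the density outside the last 3 Mb (vertical axis, dashed line at 1), at passage 0 (blue circles) and passage 5 (red squares); bars are 95% counting intervals and the grey band marks the last 3 Mb. At passage 0 the ratio rises from 0.610 in the last 1 Mb to 1.78 in the third and 2.57 between 8 and 9 Mb.

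Single autosomes departed from this summed profile. On chromosome 4 the second Mb led, with 111 passage 0 peaks between 29 in the last and 26 in the third, and 10 of its 15 passage 5 peaks lay there too. On chromosome 16 the third Mb held 89 of 117 passage 0 members and 9 of 13 passage 5 members. On chromosome 19 it held 54 of 68 and 7 of 11. Chromosome 5 had 42, 39 and 104 passage 0 peaks from the last Mb inwards, and chromosome 14 had 15, 80 and 98. Chromosomes 7 and 10 were more even, with 30, 27 and 45 and with 30, 47 and 45 peaks. The last Mb held fewer passage 0 peaks than either of the next steps on 12 autosomes.

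**Figure D3:**
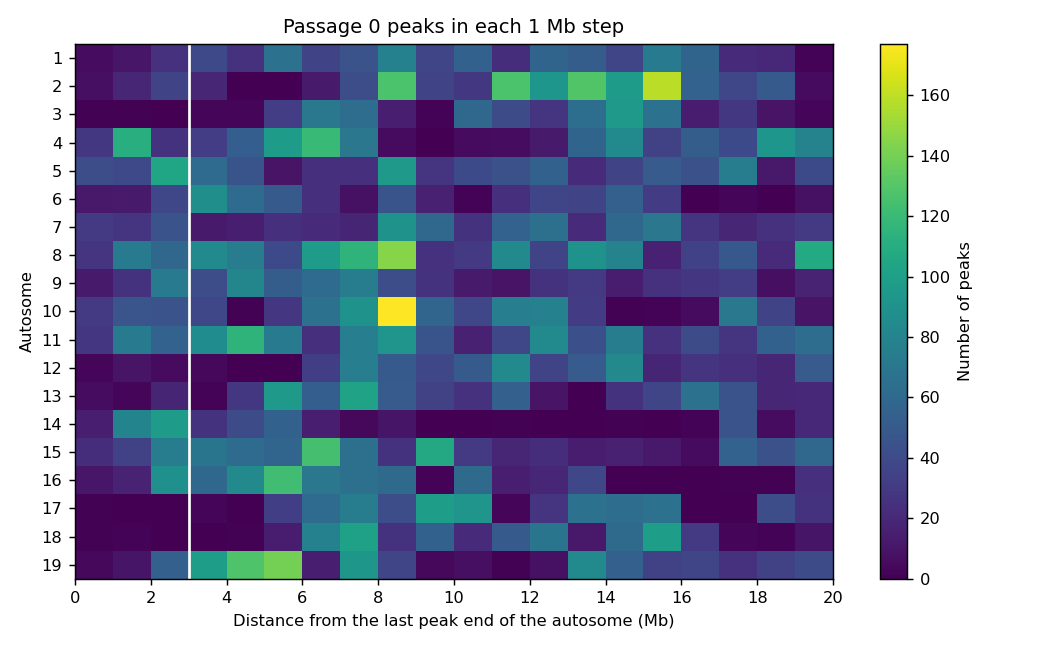
Number of passage 0 peaks (colour) in each 1 Mb step from the last peak end (horizontal axis, Mb) on each autosome (vertical axis); the white line marks 3 Mb. The last 3 steps of chromosomes 3, 17 and 18 hold 0 to 2 peaks each, and those of chromosome 14 hold 15, 80 and 98.

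Distal peaks were like other peaks in width at the length of 3 Mb. The median width of the passage 0 members was 853 bp (quartiles 714 and 1050), against 850 bp (711 and 1047) in the rest, a difference of 3 bp with an interval of -12.1 to 14.2. At passage 5 the medians were 561 bp and 563 bp, a difference of -2 bp (-24.1 to 14.3). Among the 16 autosomes with at least 10 passage 0 members, the distal median width ran from 742 bp on chromosome 13 to 909 bp on chromosome 14, a wider range than the 837 to 875 bp of the rest. It was above the median of its own rest on 6 of the 16. In the widest of 10 width classes, 21.5% of distal passage 0 peaks and 16.4% of the others overlapped a passage 5 peak. The 5 widest passage 0 members had no passage 5 partner. They measured 4041 bp on chromosome 14 at 120694215 to 120698255, 3525 bp on chromosome 10 at 127926331 to 127929855, 3221 bp on chromosome 16 at 95504596 to 95507816, 3000 bp on chromosome 15 at 100606590 to 100609589 and 2871 bp on chromosome 4 at 153929909 to 153932779. The widest peak of the rest measured 21069 bp.

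Scores were similar too at this length. The passage 0 members had a median score of 131 (quartiles 97.7 and 192), against 129 (97.3 and 192) in the rest, and the difference of 2.13 had an interval of -1.63 to 7.05. At passage 5 the medians were 115 and 117, a difference of -1.97 (-8.50 to 4.37). On the 16 fuller autosomes the distal median at passage 0 ran from 106 on chromosome 19 to 147 on chromosome 14, and it was above that of its own rest on 6. The highest distal score was 1093 at passage 0 and 326 at passage 5, against 3202 and 3100 in the far larger rest. Strong peaks were not fewer at passage 0, where 10.9% of the members lay in the highest of 10 score classes of the autosomal list.

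The 5 strongest passage 0 members lay on 4 autosomes. The strongest was the widest one, on chromosome 14, with a score of 1093, 2.91 Mb from the end. It had no passage 5 partner, and the nearest passage 5 peak was 7.10 kb away. The next, on chromosome 16 at 95504596 to 95507816, scored 940 and had its nearest passage 5 peak at 135 kb. A pair on chromosome 4 kept a partner. The peak at 153893187 to 153895728 (score 841) held a passage 5 peak of 699 bp with a score of 131, and the peak at 154503711 to 154505334 (score 832) held one of 676 bp with a score of 217. The last of the 5, on chromosome 10 at 126999961 to 127001985, scored 809 and had no partner. The next strongest passage 0 members without a partner lay on chromosome 14 at 120773822 to 120776493 (score 782) and on chromosome 4 at 153901218 to 153903468 (score 779).

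Most of the strongest passage 5 members were shared, as were 71.0% of all passage 5 members and 70.0% of all autosomal passage 5 peaks. The peak on chromosome 11 at 119048328 to 119048820 scored 326 and lay inside a passage 0 peak of 1434 bp with a score of 323. That on chromosome 8 at 129137930 to 129138618 scored 306 and lay inside a passage 0 peak with a score of 357. Chromosome 14 at 121638415 to 121639477 (score 259) and chromosome 9 at 123400071 to 123400626 (score 249) also had partners, with passage 0 scores of 451 and 379. The third strongest, on chromosome 8 at 129433201 to 129433732 with a score of 269, had no passage 0 peak, and the nearest was 3.17 kb away. The other leading passage 5 members without a partner were on chromosome 7 at 150325096 to 150325982 (score 221), chromosome 1 at 195068330 to 195068975 (206), chromosome 11 at 119263826 to 119264499 (202) and chromosome 5 at 149581052 to 149581356 (180). The distance to the closest passage 0 peak was 14.1, 6.67, 109 and 11.1 kb.

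Distal passage 0 peaks were found again at passage 5 about as often as other peaks. Retention, the share of passage 0 peaks that have at least 1 base in a peak of the other list, was 130 of 1728 or 7.52% (exact Clopper-Pearson interval 6.32% to 8.87%) in the distal parts and 4451 of 58358 or 7.63% (7.41% to 7.85%) in the rest, beside 7.62% of all autosomal passage 0 peaks. The difference was -0.104 percentage points with an interval of -1.32 to 1.26. Of the passage 5 members, 130 of 183 or 71.0% (63.9% to 77.5%) had a passage 0 peak, against 69.9% (68.8% to 71.1%) in the rest and 70.0% of all autosomal passage 5 peaks. In number, there were 10.6 passage 5 peaks per 100 passage 0 peaks in the distal parts (9.04 to 12.3) and 11.2 in the rest (10.9 to 11.5). The fewer peaks at passage 5 were thus seen at the distal ends in nearly the proportion of the rest. Less 5hmC at passage 5 and a shallower or less enriched library cannot be told apart.

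Retention by autosome varied with the small numbers. It was above the rest of the same chromosome on 9 autosomes and below on 10, and on each of the 19 the value of the rest lay inside the exact interval of the distal value. Chromosomes 3, 17 and 18, counted as below, had only 2, 1 and 3 passage 0 members and none retained. Their intervals reached 84.2%, 97.5% and 70.8%, so the values of their rest, 7.20%, 7.35% and 6.64%, could hardly lie outside. Chromosome 13 had the highest share, 5 of 27 members or 18.5%, against 7.15% in its rest. Chromosome 15 followed with 13 of 131 or 9.92% (rest 7.84%), and chromosome 8 with 15 of 158 or 9.49% (rest 7.17%). Low shares were 1 of 62 or 1.61% on chromosome 2 (rest 7.63%) and 3 of 112 or 2.68% on chromosome 9 (rest 7.38%). On chromosome 4 all 15 passage 5 members had a passage 0 partner, and on chromosome 9 it was 3 of 8.

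As in the rest, the retained distal peaks were the stronger and wider ones. The 130 retained members had a median passage 0 score of 247 (quartiles 143 and 357) and the 1598 others 127 (96.1 and 183). In the rest these medians were 213 and 125. Median widths were 1036 bp and 839 bp in the distal parts and 1001 bp and 839 bp in the rest. When all passage 0 peaks of the autosomes were cut into 10 classes by score, distal retention went from 3 of 184 or 1.63% in the lowest class to 51 of 189 or 27.0% (20.8% to 33.9%) in the highest, where the rest had 24.3%. In each of the 10 classes the value of the rest lay inside the distal interval. Reweighted to the scores of the distal peaks, the rest would have had a retention of 7.84%, reweighted to their widths 7.71% and reweighted to their chromosomes 7.68%, each close to the 7.52% measured.

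**Figure D4:**
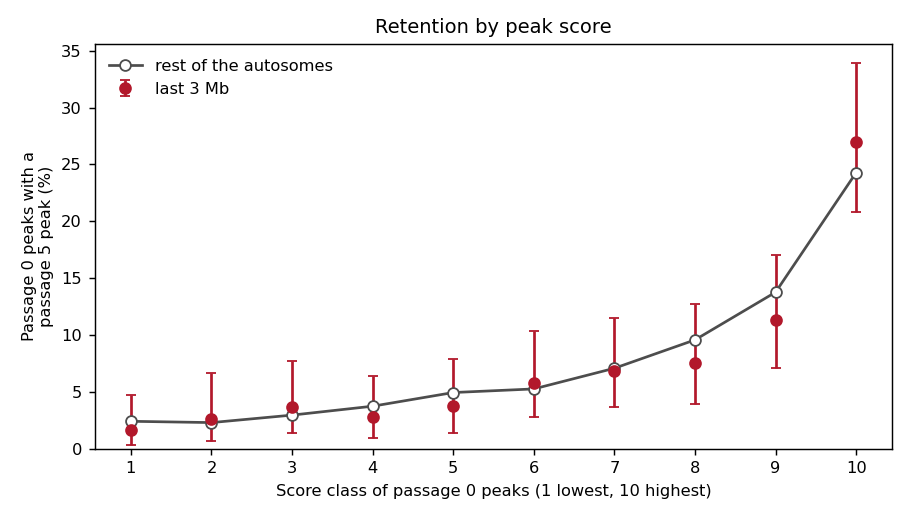
Retention of passage 0 peaks at passage 5 (percent, vertical axis) in 10 score classes of equal size (horizontal axis), in the last 3 Mb (red points with 95% exact intervals) and in the rest of the autosomes (open points). Both climb with the score, to 27.0% and 24.3% in the highest class.

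The last 1 Mb differed somewhat from the remainder of the distal part in these readouts, within wide intervals. Retention there was 27 of 289 or 9.34% (6.25% to 13.3%), against 6.90% in the second Mb and 7.34% in the third. There were 15.2 passage 5 peaks per 100 passage 0 peaks (10.8 to 21.0), against 9.93 and 9.47. Of its 44 passage 5 peaks, 27 or 61.4% (45.5% to 75.6%) had a passage 0 partner, against 69.5% and 77.5%. The median passage 0 score was 121, with 129 and 136 in the next steps, and the median width 808 bp, with 857 and 863 bp.

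Where a distal site was called at both passages, the passage 5 peak usually lay inside the passage 0 peak. Passage 5 peaks were the narrower ones in general, with median widths of 561 bp against 853 bp among all members. In the rest these medians were 563 bp and 850 bp. Of 130 overlapping pairs, the passage 5 peak lay wholly within the passage 0 peak in 110, or 84.6%, against 77.2% of 4572 pairs in the rest. It covered a median of 53.0% of the passage 0 peak (54.0% in the rest), and the midpoints were a median of 124 bp apart (105 bp in the rest). Of the 53 passage 5 members without a partner, 26 lay within 10 kb of a passage 0 peak, or 49.1%, against 55.1% in the rest, and 1, or 1.89%, lay within 500 bases, against 7.40% in the rest. Their median score was 108, against 120 for the shared passage 5 members, and in the rest the medians were 111 and 119.

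Distal passage 0 peaks had a near neighbour as often as others, and a somewhat larger share was counted in runs. At passage 0, 993 members or 57.5% (55.1% to 59.8%) lay within 5 kb of another peak, and the share in the rest was 57.5% as well. The median gap to the nearest peak was 3.41 kb, against 3.63 kb in the rest. At passage 5 the share was 18 of 183 or 9.84% (5.93% to 15.1%), below the 16.3% (15.4% to 17.2%) of the rest. Without the first 3 Mb of each autosome, the rest had 15.5% (14.6% to 16.4%), and the intervals then overlapped. Peaks with gaps of at most 5 kb were taken as a run. The distal parts held 50 runs of at least 5 passage 0 peaks, with 339 peaks or 19.6% of the members, against 15.9% in the rest. These run shares have no interval, and the peaks of a run are not independent. Distal density was also higher, and its part in this difference was not tested. The longest distal run lay on chromosome 4 at 154495383 to 154532941, with 16 peaks in 37.6 kb, a best score of 832, and 4 of its peaks had a passage 5 partner. The second, also on chromosome 4 at 153893187 to 153924480, had 11 peaks in 31.3 kb and 1 passage 5 peak. The third, on chromosome 14 at 120718398 to 120744304, had 11 peaks in 25.9 kb with a median score of 281, and no passage 5 peak. The longest run of the rest held 38 peaks.

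The opposite ends of the autosomes, the 3 Mb after the first peak, gave another picture. They held 1149 passage 0 peaks, 20.2 per Mb, and 224 passage 5 peaks, 3.93 per Mb, against 30.3 and 3.21 in the distal parts. Retention there was 10.5% (8.82% to 12.5%), above the 7.52% (6.32% to 8.87%) of the distal parts, with intervals that overlap narrowly. Of those 224 passage 5 peaks, 80 lay on chromosomes 9 and 11, and the best passage 5 score was 2260. In the distal parts the fullest autosomes at passage 5 were chromosomes 8 and 11, with 19 and 18 of 183 peaks, and the best score was 326.

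The genes under these peaks were not assigned, because the gene table at hand is of another build. Its gene order gives the genes nearest the end as background only, for chromosomes picked after their values were seen. The last 10 genes in order were looked at, without positions. They need not lie in the densest step, which on chromosome 4 was the second Mb. In RefSeq GRCm38.p6 the named protein-coding genes at the distal end of chromosome 14 include Fgf14, a regulator of sodium channels, Nalcn, a sodium leak channel, Pcca, an enzyme of propionate breakdown, and the transcription factor genes Zic2 and Zic5. Those of chromosome 5 include Rfc3, a clamp loader subunit, Kl, the hormone co-receptor klotho, the cohesin factor Pds5b and the repair gene Brca2. Those of chromosome 4 include Agrn, which organises the neuromuscular synapse, and the interferon-induced Isg15. At a sparse end, chromosome 3 has Wls, a Wnt secretion factor, and Rpe65, an enzyme of the visual cycle.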

How the data were processed

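Peak lists of 1 library at passage 0 and 1 at passage 5 were analysed. Per the submitters' processing notes, CASAVA 1.8, Bowtie 0.12.7, MACS 1.4.1 and build mm9 were used. Settings, treatment of duplicates, any input control and the calling threshold were not given in the sources used here. For each peak the authors deposited a position and a score without a named scale. Positions are printed in mm9, counted from 1.

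Only chromosomes 1 to 19 entered. The rest of an autosome runs from the first peak start of both lists to the 3 Mb border. Peaks were counted by midpoint, and covered bases were clipped at the border. Shares have exact (Clopper-Pearson) intervals, density ratios and numbers per 100 have intervals derived from these, medians have binomial limits, and differences combine both limits. No p-value was computed. Depth is unknown.

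Named were the 5 strongest members of each list, the 5 strongest of each without a partner, the 5 widest passage 0 members, the 3 longest runs, the autosomes with the highest and lowest ratios, and the peaks at the border. The members and lists were chosen with earlier results of these data known. The scripts were checked on simulated lists, and overlaps equalled those of bedtools 2.31.1. Python 3.11.15, numpy 2.4.6, pandas 2.3.3, scipy 1.17.1 and matplotlib 3.10.9 were used. The planned gene features and base composition were not run, since no mm9 annotation or sequence was used.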

Additional observations from a re-analysis of the deposited data

Results flagged for a closer look

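The distal minus rest differences had opposite signs at the 2 passages for median width, 3 bp at passage 0 and -2 bp at passage 5, and for median score, 2.13 and -1.97. The difference between passages was not tested, and each interval included 0.

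The X chromosome, which the rule leaves out, had peaks in its last 3 Mb. These were 13 of 65 X peaks at passage 0, or 20% (exact interval 11.1% to 31.8%), and 10 of 23 at passage 5, or 43.5% (23.2% to 65.5%). The X held 4.33 and 3.33 peaks per Mb there, against 0.330 and 0.0826 in its rest. No control samples were analysed here.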

How the results depend on the processing

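Of 315 recomputed values for 11 results, 271 lay inside the interval given with the result and 44 outside it. In all, 38 lay on the other side of equality from the reported value. For results whose own interval left out equality there were 4 of these, the passage 0 ratios of density and covered bases, which were 0.605 and 0.567 for the last 1 Mb and 0.926 and 0.912 for the last 2 Mb. The passage 5 ratios were 0.827 and 0.815 for the last 1 Mb and 0.969 and 0.974 for the last 2 Mb. For the last 5 Mb the ratios were 1.42 and 1.46 at passage 0 and 1.34 and 1.34 at passage 5. For the last 10 Mb they were 1.89 and 1.99, and 1.51 and 1.52. These lengths join 1 Mb steps of unlike density. At passage 0 the density was below that of the rest in the last 1 Mb and above it in every further step to 10 Mb. With the end taken from the passage 5 list the ratios were 1.55 and 1.59, and 1.45 and 1.45. Without chromosomes 3, 17 and 18 they were 1.45 and 1.46, and 1.35 and 1.34. These choices and the last 10 Mb were added after the data were seen. The median over autosomes of the density ratio was 1.36 at passage 0 and 1.01 at passage 5, and that of the retention difference was -0.902 points. The retention median includes chromosomes 3, 17 and 18, which had only 2, 1 and 3 passage 0 members.

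The width difference at passage 0 was -42 bp (-79.1 to -3.95) for the last 1 Mb and -6 bp (-26.2 to 9.13) for the last 2 Mb. It was 18 bp (8.78 to 31.2) for the last 5 Mb and 30 bp (22.4 to 37.6) for the last 10 Mb. With the passage 5 end it was 15 bp (3.82 to 28.3). Of these width intervals, only that of the last 2 Mb included 0. The score difference at passage 0 was -7.61 for the last 1 Mb and -1.65 for the last 2 Mb, but 5.09 (1.89 to 8.79) for the last 5 Mb, 6.61 (4.32 to 8.70) for the last 10 Mb and 3.97 (0.157 to 7.96) with the passage 5 end, intervals that left out 0. For the last 1 Mb, the retention difference was 1.73 points, that of passage 5 peaks with a partner -8.66 points and that of passage 5 peaks per 100 passage 0 peaks 4.09. The last of these was -2.31 for the last 10 Mb. The cause of the shifts in width, score and overlap was not tested.

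Leaving out each autosome in turn gave passage 0 density ratios of 1.13 (without chromosome 14) to 1.29 (without chromosome 17), and covered-base ratios of 1.12 to 1.30 without the same chromosomes. All 19 of these density intervals lay above 1. At passage 5 the range was 1.09 to 1.22, and the interval lay above 1 in 6 of 19, those without chromosome 1, 2, 3, 12, 17 or 18. Scores of at least 100, merging within 1 kb and omitting the first 3 Mb moved none of the 11 results out of its interval, though after merging the passage 5 density interval, 1.02 to 1.37, no longer included 1. No paired analysis was possible because each passage had 1 library. Unknown depth limits every comparison between passages.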

Other observations

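Taken out to 10 Mb, a length chosen after the data were seen, the distal parts differed from the rest in more than density. Retention of passage 0 peaks was 6.80% there and 7.76% in the rest, a difference of -0.962 percentage points (-1.54 to -0.358). There were 9.16 passage 5 peaks per 100 passage 0 peaks, against 11.5. Both low values came from the inner steps of this length. Between 6 and 10 Mb from the end, retention in the 1 Mb steps was 6.24%, 5.71%, 5.92% and 4.75%. In the steps nearer the end it ran from 6.90% to 9.34%. Passage 5 peaks per 100 passage 0 peaks ran from 6.69 to 8.42 between 6 and 10 Mb, and from 9.47 to 15.2 nearer the end. In the other direction, 76.1% of the passage 5 peaks in the last 10 Mb had a passage 0 peak, against 69.2%, a difference of 6.97 points (3.59 to 10.2). The passage 0 density in these parts was 1.89 times that of the rest.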
